A study of Mus musculus with 20 samples.

Results

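Serum of old Ames dwarf mice was set against serum of young normal mice, to ask whether old animals of this long-lived line hold the small RNA profile of young normal animals. The comparison rests on 10 of the 20 libraries of the series, 5 from each group, chosen by their labels. Old dwarf samples came from female Ames dwarf mice of 21 to 22 months, and young normal samples from female normal mice of 5 to 6 months, all labelled as Ames dwarf stock of heterogeneous genetic background. Old normal mice (21 to 22 months) and young dwarf mice (5 to 6 months), also female with 5 libraries each, are used beside them. Because age and genotype both differ between old dwarf and young normal mice, their parts in a difference between these groups cannot be told apart. The labels do not say that the samples are separate mice, so p-values measure the spread between these samples.

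Ames dwarf mice lack growth hormone, prolactin and thyrotropin. They are small, insulin sensitive and long-lived. A mature miRNA guides Argonaute to messenger RNAs through base pairing of its seed, bases 2 to 8, and represses them. miRNAs in serum travel in vesicles, on lipoproteins or bound to Argonaute, and come from blood cells, endothelium, liver, muscle and other tissues, so that a serum level mixes release from many sources.

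The sequences on which the results turn are shown first, each written 5′ to 3′ with the seed in capitals, as listed by RefSeq for GRCm38.p6. miR-592-5p is the single miRNA called higher in old dwarf serum, and miR-205-5p and miR-296-5p are the 2 called lower. miR-298-5p is the genomic neighbour of miR-296-5p. miR-31-5p and miR-335-3p had the smallest p-values among the lower miRNAs that were not called.
miR-592-5p: aUUGUGUCaauaugcgaugaugu
miR-205-5p: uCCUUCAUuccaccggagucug
miR-296-5p: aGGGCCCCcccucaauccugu
miR-298-5p: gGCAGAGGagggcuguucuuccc
miR-31-5p: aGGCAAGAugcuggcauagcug
miR-335-3p: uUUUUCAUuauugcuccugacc

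The next set holds liver-enriched miRNAs and the miR-34 and miR-449 family. miR-192-5p and miR-215-5p share a seed, as do miR-34b-3p and miR-34c-3p, which come from neighbouring hairpins.
miR-192-5p: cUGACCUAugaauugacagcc
miR-215-5p: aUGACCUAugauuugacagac
miR-802-5p: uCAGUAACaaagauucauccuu
miR-34b-3p: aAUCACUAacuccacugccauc
miR-34c-3p: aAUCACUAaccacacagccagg
miR-449a-5p: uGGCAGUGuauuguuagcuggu

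miR-127-3p and miR-136-5p of the imprinted Dlk1-Dio3 locus are shown because they separated libraries within both groups.
miR-127-3p: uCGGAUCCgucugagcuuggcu
miR-136-5p: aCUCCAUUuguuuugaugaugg

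Total miRNA counts per library ran from 1653992 to 4710263 for young normal and from 1343137 to 3597213 for old dwarf serum. Log2 total counts differed by -0.34 (old dwarf minus young normal, exact permutation p 0.389, adjusted p 0.643). After each library was thinned to the smallest depth, 566.9 ± 31.6 miRNAs (SD, n = 5) had a read in old dwarf and 583.7 ± 32.5 in young normal serum (exact permutation p 0.429, adjusted p 0.643). The haemolysis index, which sets the red-cell miRNA miR-451a over miR-23a-3p on a log2 scale, averaged 5.38 ± 0.44 in old dwarf and 5.45 ± 0.61 in young normal serum (difference -0.07, 2-sided exact permutation test p 0.833, adjusted over the 3 measures 0.833). The smallest p that 5 against 5 libraries allow is 0.00794.

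Few single miRNAs separated old dwarf from young normal serum. Of 360 tested miRNAs, 3 had an adjusted p under 0.05 in edgeR's quasi-likelihood test, which is 0.833% of those tested. One was higher (0.278%) and 2 were lower (0.556%). At an unadjusted p under 0.05, 33 miRNAs (9.17%) stood out, 18 higher and 15 lower. The median log2 fold change of all 360 was 0.00, with quartiles of -0.26 and 0.28, and 183 lay above 0 and 177 below.

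How closely the groups matched could be bounded for some miRNAs. For 142 of 360 (39.4%) the 95% interval of the log2 fold change lay wholly between -1 and 1, that is inside a 2-fold change either way. Abundant miRNAs were bounded more often: 34 of the 47 with a mean of at least 1000 CPM (counts scaled to a common library size) were so bounded, against 11 of the 100 under 10 CPM. For the other 215 miRNAs no difference was called and the interval reached past a 2-fold change, so at this depth and spread they can be named neither different nor alike. The median standard error was 0.40 on the log2 scale.

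**Figure D1:**
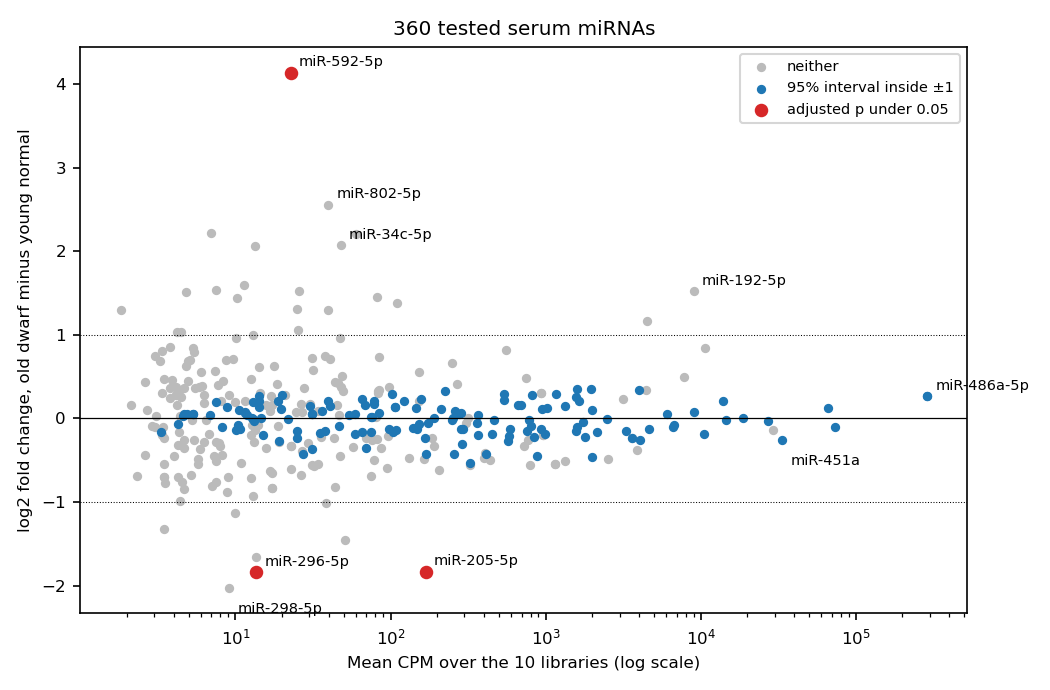
Log2 fold change of old dwarf against young normal serum (vertical axis) against the mean CPM over the 10 libraries (log axis) for 360 miRNAs, with 3 called miRNAs in red and the 142 whose 95% interval lies inside ±1 in blue. The points gather around 0 above 1000 CPM, where 34 of 47 are blue and 0 are called.

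The bulk of serum miRNA was held by the same abundant species at like levels. The 10 most abundant names, which hold 9 separate counts because miR-486a-5p and miR-486b-5p share reads, made up a median of 73.5% of counts in old dwarf and 76.9% in young normal libraries, with shared reads counted once. Their log2 fold changes ran from -0.26 to 0.27, 9 of the 10 intervals lay inside a 2-fold change, and the smallest edgeR adjusted p was 0.896. miR-16-5p, a repressor of cell-cycle genes that is rich in blood cells, stood at 68872 ± 5342 against 63022 ± 17048 CPM (log2 0.13, 95% interval -0.30 to 0.56). miR-451a, the erythroid miRNA that is matured by Argonaute itself, stood at 30615 ± 6767 against 36605 ± 13087 CPM (log2 -0.26, interval -0.83 to 0.32). miR-22-3p stood at 70513 ± 13236 against 75882 ± 7765 CPM, a log2 difference of -0.11 (interval -0.44 to 0.23) that was 0.01 with upper-quartile scaling. miR-23a-3p, the reference of the index, differed by log2 -0.15 (interval -0.45 to 0.16).

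miR-592-5p rose most. It held 172.3, 26.9, 5.63, 5.46 and 4.97 CPM in old dwarf replicates 1 to 5, and 1.46, 2.93, 2.46, 2.25 and 2.82 CPM in young normal replicates 1 to 5. The ranges do not overlap, but old dwarf replicate 1 lay far above the others, replicate 2 came next, and replicates 3 to 5 lay close together just above the young normal libraries. The fitted log2 fold change was 4.14 ± 0.87 (SE, interval 2.33 to 5.94, edgeR adjusted p 0.0227). Without old dwarf replicate 1 it was 2.16 (adjusted p 0.0627). The young normal counts behind these levels were 3 to 8 reads per library, and old dwarf replicates 3 to 5 held 8 to 10 reads. The other arm of the hairpin, miR-592-3p, had 0 reads in all 10 libraries. In GENCODE M21 (GRCm38), Mir592 spans 27936655 to 27936750 of chromosome 6 on the minus strand, in an exon of a non-coding transcript of Grm8, which encodes a metabotropic glutamate receptor.

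miR-205-5p, a miRNA of stratified and glandular epithelia that holds back ZEB factors of epithelial-mesenchymal transition, fell. It held 66.8, 68.5, 112.7, 58.0 and 64.1 CPM in old dwarf replicates 1 to 5, against 426.1, 304.4, 136.1, 282.6 and 168.6 CPM in young normal replicates 1 to 5. All 5 old dwarf libraries lay below all 5 young normal ones, with old dwarf replicate 3 nearest to them. The log2 fold change was -1.83 ± 0.39 (interval -2.65 to -1.01, edgeR adjusted p 0.0227). Its 3p arm, too low to be tested, had 5 reads among 10928408 in old dwarf and 30 among 14040657 in young normal libraries. Mir205 lies on chromosome 1 at 193507463 to 193507530 in an exon of the lincRNA 4631405K08Rik.

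miR-296-5p also fell. It held 2.69, 11.5, 5.63, 4.78 and 4.47 CPM in old dwarf replicates 1 to 5 and 24.8, 10.9, 26.5, 32.1 and 12.3 CPM in young normal replicates 1 to 5. Old dwarf replicate 2 lay above young normal replicate 2, and all other old dwarf libraries lay below all young normal ones. The log2 fold change was -1.84 ± 0.40 (interval -2.68 to -1.0, edgeR adjusted p 0.0227). Its 3p arm held 6 reads in old dwarf and 28 in young normal libraries.

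These 3 calls sat near the threshold. In the fit of the 10 compared libraries alone 0 miRNAs were called, and the filter removed miR-592-5p there. With a replicate block 0 were called as well. The adjusted p of miR-592-5p was also over 0.05 without young normal replicate 1 (0.0780), 3 (0.0568) or 4 (0.0839). That of miR-205-5p was over 0.05 without young normal replicate 1 (0.0780) or 4 (0.0839), or old dwarf replicate 1 (0.0584), 2 (0.0548), 4 (0.133) or 5 (0.137). That of miR-296-5p was over 0.05 without young normal replicate 1 (0.0780), 3 (0.0585) or 4 (0.110), or old dwarf replicate 1 (0.0584), 3 (0.0806), 4 (0.138) or 5 (0.158). Log2 fold changes of miR-205-5p and miR-296-5p stayed below 0 in each of these fits.

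Mir296 (chromosome 2, 174267047 to 174267125) is the neighbour of Mir298 (174267504 to 174267585). Both are on the minus strand, between genes in the annotation, and are known as imprinted miRNAs of the Gnas region. miR-298-5p held 1.62, 7.53, 5.07, 2.05 and 0.99 CPM in old dwarf replicates 1 to 5, against 20.4, 10.5, 10.2, 22.5 and 9.87 CPM in young normal replicates 1 to 5. The ranges did not overlap, and the change did not pass (log2 -2.02 ± 0.62, edgeR adjusted p 0.158). Old dwarf libraries held 2 to 21 reads of it.

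**Figure D2:**
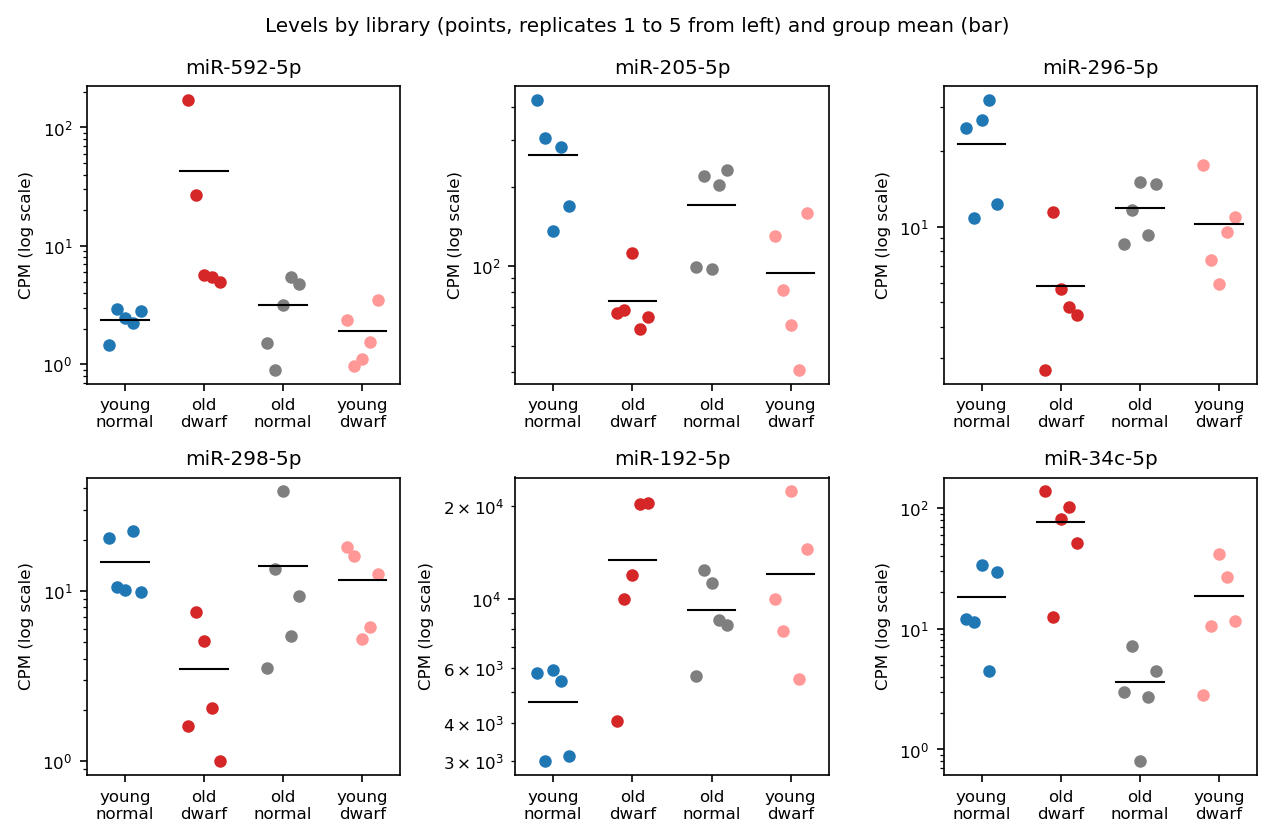
CPM (log axis) of 6 miRNAs in each library of the 4 groups, with points for replicates 1 to 5 from left to right and a bar for the group mean. Old dwarf points of miR-205-5p and miR-298-5p lie below all young normal points, and the miR-592-5p mean is carried by replicate 1 at 172.3 CPM.

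The ranges of 6 of 360 miRNAs (1.67%) did not overlap between the groups. miR-592-5p and miR-208b-3p were higher in all old dwarf libraries, and miR-205-5p, miR-298-5p, miR-140-5p and miR-20a-5p were lower in all of them. miR-140-5p, a cartilage miRNA chosen here after its values were seen, held 56.0 to 66.7 CPM in old dwarf and 67.0 to 92.4 CPM in young normal serum, a small gap (log2 -0.35, edgeR adjusted p 0.626). miR-20a-5p of the miR-17 to miR-92 cluster held 130.7 to 152.2 against 153.4 to 259.5 CPM (log2 -0.42, adjusted p 0.540).

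Other miRNAs with small p-values did not pass the adjustment in edgeR, though miR-335-3p, miR-31-5p and miR-6240 did in DESeq2. miR-335-3p is encoded inside imprinted Mest, in an intron (chromosome 6, 30741299 to 30741396). It held 3.94 to 9.15 CPM in old dwarf and 8.31 to 46.6 CPM in young normal serum (log2 -1.66 ± 0.45, edgeR adjusted p 0.0878). The other arm, miR-335-5p, was tested and not called. Its reads per library, not scaled for depth, ran from 32 to 98 in old dwarf and from 57 to 188 in young normal serum, overlapping ranges. In all it held 344 and 550 reads, against 64 and 275 of miR-335-3p. miR-31-5p, common in epithelia and fibroblasts, held 32.3, 40.5, 27.04, 23.9 and 11.4 CPM in old dwarf against 87.4, 39.8, 79.4, 103.6 and 62.1 CPM in young normal replicates 1 to 5 (log2 -1.46 ± 0.40, adjusted p 0.0878). Only young normal replicate 2 fell within the old dwarf range for miR-31-5p. miR-6240, listed between genes on chromosome 5 (114851948 to 114852064), held 11.3 to 76.4 against 5.64 to 25.2 CPM (log2 1.53 ± 0.47, adjusted p 0.158).

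Liver-enriched miRNAs were highest in 2 of the 5 old dwarf libraries, and 2 of the 5 young dwarf libraries were alike in this. All 7 tested members of the 11 listed had a log2 fold change above 0, with a median of 1.52 beside 0.00 over all miRNAs. None was called, and with 0.833% called over all miRNAs a count of 0 in this or any list below says nothing about its members. The list median was 1.37 for young dwarf against young normal serum and 0.02 for old dwarf against young dwarf serum. miR-192-5p, which is rich in liver, gut and kidney, held 4049, 10038, 11966, 20306 and 20457 CPM in old dwarf and 5758, 2994, 5925, 5458 and 3122 CPM in young normal replicates 1 to 5. All old dwarf libraries but replicate 1 lay above the young normal range. Its log2 fold change was 1.52 ± 0.41 (edgeR adjusted p 0.0878), and without old dwarf replicate 1 it was the only miRNA called.

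miR-802-5p, a liver and pancreas miRNA linked to glucose handling, held 11.8, 23.7, 26.5, 170.6 and 105.8 CPM in old dwarf replicates and 6.70 to 18.2 CPM in young normal libraries (log2 2.56 ± 0.71, edgeR adjusted p 0.0878). miR-122-5p, the dominant hepatocyte miRNA, held 12.9, 3.94, 9.58, 347.3 and 117.3 CPM in old dwarf and 17.5, 6.28, 69.6, 5.91 and 6.00 CPM in young normal replicates 1 to 5 (log2 2.21 ± 1.21, adjusted p 0.626). Old dwarf replicates 4 and 5 stood above all young normal libraries for miR-122-5p, and replicates 1 to 3 did not. In the mean over the list, these 2 libraries reached 8.58 and 7.81 log2 CPM, against 6.06 to 6.16 in old dwarf replicates 1 to 3 and 5.44 to 6.63 in young normal libraries. Young dwarf replicates 3 and 5 reached 8.45 and 7.79. Without replicate 4 the list median was 0.97, and without both it was 0.29 and miR-122-5p stood at log2 -1.20. In bulk serum more releasing cells and more RNA per cell cannot be told apart.

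miR-215-5p, the seed partner of miR-192-5p and chosen here after its values were seen, peaked in other old dwarf libraries. It held 2712, 10171, 11406, 3633 and 3291 CPM in old dwarf replicates 1 to 5 and 1557 to 4074 CPM in young normal serum (log2 1.17 ± 0.48, edgeR adjusted p 0.355). Replicates 2 and 3 were highest for miR-215-5p and also above the young normal range for miR-192-5p, while replicates 4 and 5 were highest for miR-192-5p and within the young normal range for miR-215-5p. Mir192 lies on chromosome 19 at 6264844 to 6264932 and Mir215 on chromosome 1 at 185313581 to 185313692, so the pair shares its seed but not its locus.

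Levels of miR-34b and miR-34c were above young normal ones in most old dwarf libraries. miR-34b and miR-34c are p53-responsive miRNAs that restrain the cell cycle, transcribed together from chromosome 9, where Mir34b (51103562 to 51103645) and Mir34c (51103034 to 51103110) face a Btg4 intron on the other strand. miR-34c-5p held 138.4, 12.5, 80.6, 102.3 and 51.2 CPM in old dwarf and 12.1, 11.3, 33.9, 4.50 and 29.3 CPM in young normal replicates 1 to 5. Old dwarf replicate 2 lay among the young normal libraries and the other 4 above them all. The log2 fold change was 2.07 ± 0.67 (interval 0.67 to 3.47, edgeR adjusted p 0.191). miR-34b-3p differed by log2 1.60 ± 0.50 (adjusted p 0.158) and miR-34c-3p by 1.54 ± 0.54 (0.287).

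miR-449a-5p, of multiciliated cells and encoded within Cdc20b, held 2.82 to 5.38 CPM in old dwarf and 2.43 to 4.93 CPM in young normal serum, overlapping ranges (log2 0.24, interval -0.79 to 1.27, edgeR adjusted p 0.924). miR-34a-5p, which has its own locus and the seed of miR-449a-5p, differed by log2 0.84 (adjusted p 0.889). All 5 tested members of this list lay above 0, with a median of 1.54, and 0 were called.

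The imprinted Dlk1-Dio3 locus of chromosome 12 encodes a large set of maternally expressed miRNAs, active in embryo, placenta, muscle and brain. In serum they divided the libraries within each group, while a difference between the groups was neither called nor bounded. miR-127-3p, encoded opposite the coding exon of Rtl1, held 1117, 116.8, 71.6, 932.1 and 1310 CPM in old dwarf replicates 1 to 5 and 18.4, 640.5, 430.7, 54.3 and 873.4 CPM in young normal replicates 1 to 5. Old dwarf replicates 2 and 3 and young normal replicates 1 and 4 were low, and the other 6 libraries were high. The group difference was log2 0.81 ± 0.82 (interval -0.89 to 2.51, edgeR adjusted p 0.896).

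Other members followed the same split. miR-136-5p held 8.60 and 7.89 CPM in the low old dwarf libraries and 69.5 to 134.2 CPM in the other 3, against 3.40 and 1.97 CPM in the low young normal libraries and 35.1 to 62.1 CPM in the rest (log2 0.96, edgeR adjusted p 0.896). Of the tested members on the Meg3, Rtl1 and Rian side, 11 of 13 lay above 0 with a median log2 fold change of 0.33. On the Mirg side 16 of 18 did, with a median of 0.48. None of the 31 was called, beside 0.833% of all miRNAs (smallest adjusted p 0.777, for miR-381-3p at log2 1.38), and none had an interval inside a 2-fold change. With 1 library left out these medians ran from 0.08 to 0.81 and from 0.16 to 0.91. Old dwarf replicates 1, 4 and 5 were the high ones, and without replicates 4 and 5 the medians were -0.13 and -0.21. No other pair of libraries was left out.

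**Figure D3:**
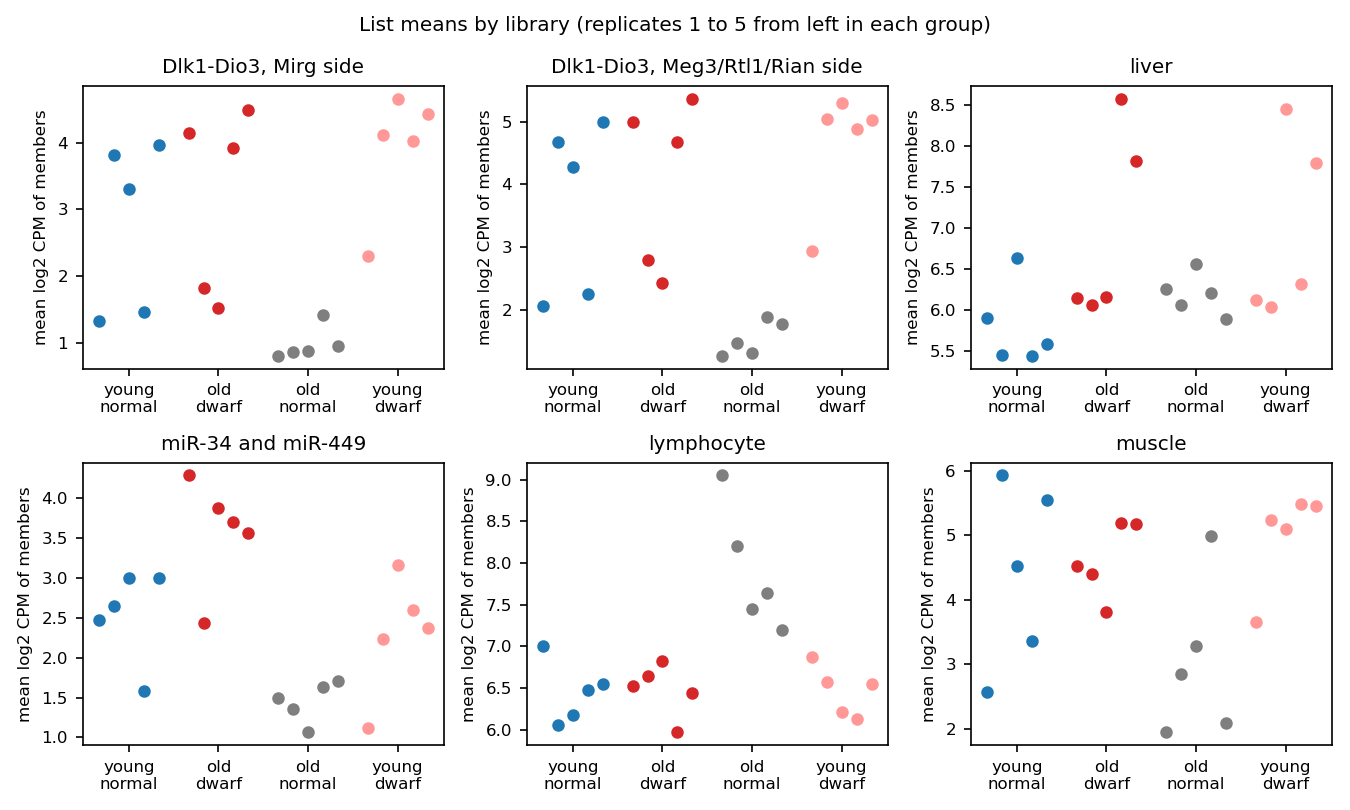
Mean log2 CPM of the tested members of 6 miRNA lists in each library of the 4 groups, replicates 1 to 5 from left to right. In both Dlk1-Dio3 panels young normal replicates 1 and 4 and old dwarf replicates 2 and 3 lie low near the old normal libraries, and in the liver panel old dwarf replicates 4 and 5 lie at 8.58 and 7.81 and young dwarf replicates 3 and 5 at 8.45 and 7.79.

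Lymphocyte miRNAs overlapped between the groups. miR-150-5p, the miRNA of mature B and T cells that restrains Myb, held 765.0, 1166, 1367, 623.6 and 756.3 CPM in old dwarf and 1823, 572.3, 775.2, 1163 and 969.7 CPM in young normal replicates 1 to 5, fully overlapping ranges (log2 -0.18, interval -0.96 to 0.60, edgeR adjusted p 0.924). miR-342-3p, from the Evl gene, differed by log2 0.38 (interval -0.29 to 1.05, adjusted p 0.889). The activation miRNA miR-155-5p differed by log2 0.40 (0.896) and miR-146a-5p, a brake on NF-kB signalling, by 0.37 (0.924). The list of 7 tested members had a median of 0.10, which was -0.13 with library totals, and 0 calls.

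The erythroid list had a median of -0.12 (0.01 with upper-quartile scaling), with 8 of 10 intervals inside a 2-fold change and 0 calls. These 10 names hold 8 separate counts, because miR-486a and miR-486b share the reads of both arms. The myeloid and platelet list had a median of -0.02 over 15 miRNAs, of which 6 had an interval inside a 2-fold change. Its smallest p belonged to miR-142a-3p, a miRNA of all blood lineages, at log2 -0.53 ± 0.20 (edgeR adjusted p 0.306). miR-223-3p, the neutrophil and platelet miRNA, differed by log2 -0.47 (0.855).

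The let-7 family, repressors of growth and of Lin28 that rise as cells mature, was bounded in full. All 9 tested names had an interval inside a 2-fold change, 8 of 9 lay below 0, and the median was -0.26. let-7g-5p differed by log2 -0.46 ± 0.22 and let-7d-5p by -0.43 ± 0.18 (edgeR adjusted p 0.523 and 0.390). The miR-29 family, which targets collagen messages, was also bounded in 4 of 4 members.

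Muscle and epithelial miRNAs differed by member. The cardiac and slow-muscle miR-208b-3p, from the myosin gene Myh7, held 21.5, 11.5, 8.45, 35.5 and 30.8 CPM in old dwarf and 1.46, 7.96, 6.46, 2.53 and 7.05 CPM in young normal replicates 1 to 5 (log2 2.06 ± 0.78, edgeR adjusted p 0.306). The ranges did not overlap, though old dwarf replicate 3 came close to the upper young normal libraries. Another myosin-encoded miRNA, miR-499-5p, lay at log2 -0.92 (adjusted p 0.889), and 2 of the 7 muscle miRNAs lay above 0. Of 9 epithelial miRNAs, 8 lay below 0 with a median of -0.23, and miR-205-5p was the single call.

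Other families held no call. Both separate counts of the Sfmbt2 cluster were lower in old dwarf serum, among them miR-669a-5p, which shares its reads with miR-669p-5p (log2 -0.83 ± 0.38, edgeR adjusted p 0.521). All 4 Hox-cluster miRNAs lay above 0 with a median of 0.45, led by miR-10a-5p at 13741 ± 5315 against 7628 ± 2974 CPM (log2 0.85 ± 0.35, adjusted p 0.355). The lists of vascular, neural and endocrine, inflammatory, miR-29, miR-30, miR-17 to miR-92, miR-23 to miR-27, miR-99 with miR-100, and miR-181 miRNAs had medians between -0.13 and 0.18.

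Old normal serum gives a scale for the distance from young normal serum. Its haemolysis index was 3.13 to 4.83, against 4.90 to 6.09 in old dwarf and 4.66 to 6.29 in young normal libraries. Whether this difference bears on the old normal comparisons was not tested. In the same fit 56 of 360 miRNAs (15.6%) separated old normal from young normal serum, 18 higher and 38 lower. That count was 37 without young normal replicate 3 or old normal replicate 1, 29 without young normal replicate 5 and 123 without young normal replicate 1. Both old groups are set against the same young normal libraries, so these counts are not independent and their difference was not tested. For a single miRNA, whether the 2 changes from young normal serum differ is tested by old dwarf against old normal serum, where 95 miRNAs (26.4%) were called, 58 higher and 37 lower in old dwarf serum. A call there does not say which group lies farther from young normal serum. Leaving out a library moved this count to 53, 55 or 51 without old dwarf replicates 1, 4 or 5 and to 143 without old dwarf replicate 2.

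Values side by side show where the old groups part. Earlier results of these data had set apart miR-127-3p, miR-150-5p, miR-342-3p, miR-34c-5p, miR-449a-5p and miR-592-5p in old dwarf against old normal serum. Their p-values between the old groups repeat that choice and are no separate support. Those of either old group against young normal serum use the same old libraries and are not free of that choice. miR-127-3p was at log2 0.81 in old dwarf and -3.90 in old normal against young normal serum (edgeR adjusted p 0.896 and 0.0115), and the 2 old groups differed by 4.72 (0.00304). miR-150-5p was at -0.18 and 1.45 (0.924 and 0.0161), a difference of -1.63 (0.00601). miR-342-3p was at 0.38 and 1.87 (0.889 and 0.00527), a difference of -1.49 (0.00479). For these 3 miRNAs the difference between the old groups kept an adjusted p under 0.05 with each library of the 2 groups left out. As they were chosen for that difference, this says only that no single library carried it.

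miR-34c-5p lay on opposite sides of the young normal level in the 2 old groups, at log2 2.07 in old dwarf and -2.38 in old normal serum (edgeR adjusted p 0.191 and 0.0323), with a difference of 4.45 between them (0.00304). The old normal change of miR-34c-5p had an adjusted p over 0.05 without young normal replicate 3 (0.0955) or 5 (0.0846), or old normal replicate 1 (0.0784), 3 (0.0758) or 4 (0.0530). miR-449a-5p was at 0.24 and -2.03 (0.924 and 0.0233), a difference of 2.27 (0.0113), and its old normal change had an adjusted p of 0.0631 and 0.0559 without young normal replicates 3 and 5.

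The called miRNAs were set side by side in the same way. miR-592-5p was at log2 4.14 in old dwarf but 0.45 in old normal serum against young normal (edgeR adjusted p 0.0227 and 0.716), and the old groups differed by 3.69 (0.00581, or 1.72 and 0.0442 without old dwarf replicate 1). miR-205-5p stood at 74.0 ± 22.0 CPM in old dwarf, 170.0 ± 65.9 in old normal and 263.5 ± 115.9 in young normal serum. The old groups differed by log2 -1.20 (adjusted p 0.0299). That value was 0.0702, 0.0885 and 0.0902 without old dwarf replicates 1, 4 and 5, and 0.0738, 0.0651 and 0.0677 without old normal replicates 2, 4 and 5. miR-296-5p stood at 5.81 ± 3.34, 11.9 ± 3.03 and 21.3 ± 9.27 CPM in the same order, and its difference between the old groups did not pass (log2 -1.0, 0.0677). In old normal against young normal serum, miR-205-5p and miR-296-5p lay at log2 -0.63 and -0.84 (edgeR adjusted p 0.213 and 0.118). Both had the same direction as in old dwarf serum.

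**Figure D4:**
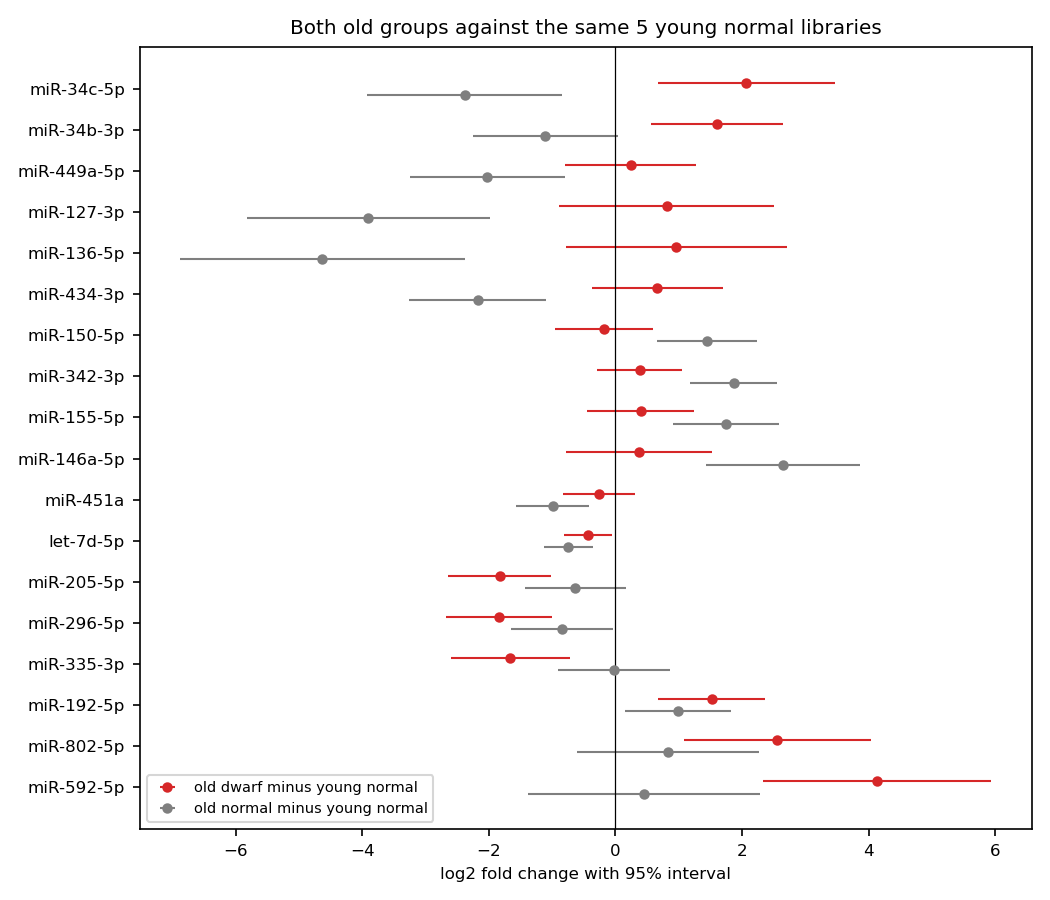
Log2 fold change with its 95% interval for 18 miRNAs in old dwarf (red) and old normal (grey) serum, each against the same 5 young normal libraries. miR-34c-5p lies at 2.07 in red and -2.38 in grey, while miR-127-3p and miR-150-5p lie at 0.81 and -0.18 in red and at -3.90 and 1.45 in grey.

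Whole profiles were compared as the root mean square difference of log2 CPM over the 360 miRNAs, a description without a test. The median was 0.954 over 25 pairs of an old dwarf and a young normal library, 1.19 over the 10 pairs within young normal and 1.36 over the 10 within old dwarf serum. Pairs of old normal with young normal libraries had a median of 1.34, and old dwarf with old normal pairs 1.62. Old dwarf with young dwarf pairs had a lower median, 0.826, and young dwarf with young normal pairs 0.923. The corresponding median Spearman correlations were 0.940 between old dwarf and young normal, 0.907 and 0.885 within these groups, and 0.836 between old dwarf and old normal serum. Both groups hold libraries low and high in Dlk1-Dio3 miRNAs, so each median depends on how many of its pairs join like libraries. The medians therefore do not show that old dwarf libraries lie nearer to young normal ones than those lie to each other. The smallest distance was 0.661 between these groups, 0.646 within young normal and 0.650 within old dwarf serum.

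The old dwarf libraries were not alike in this respect. Replicates 1, 4 and 5 lay nearer to young normal than to old normal libraries, with median distances of 0.841, 0.954 and 0.897 against 1.75, 1.74 and 1.78. They lay nearer still to young dwarf libraries, at 0.819, 0.726 and 0.759, while replicates 2 and 3 lay at 1.19 and 1.24 from those. Replicates 2 and 3 lay nearer to old normal libraries, at 0.795 and 0.899 against 1.02 and 1.06. Young normal replicates 1 and 4 did so as well, at 0.785 and 0.744 from old normal libraries and 1.44 and 1.20 from the rest of their own group. These are the libraries low in Dlk1-Dio3 miRNAs. With the 31 members of that locus left out (329 miRNAs), old dwarf replicates 2 and 3 still lay at 0.675 and 0.852 from old normal and 0.949 and 0.936 from young normal libraries.

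**Figure D5:**
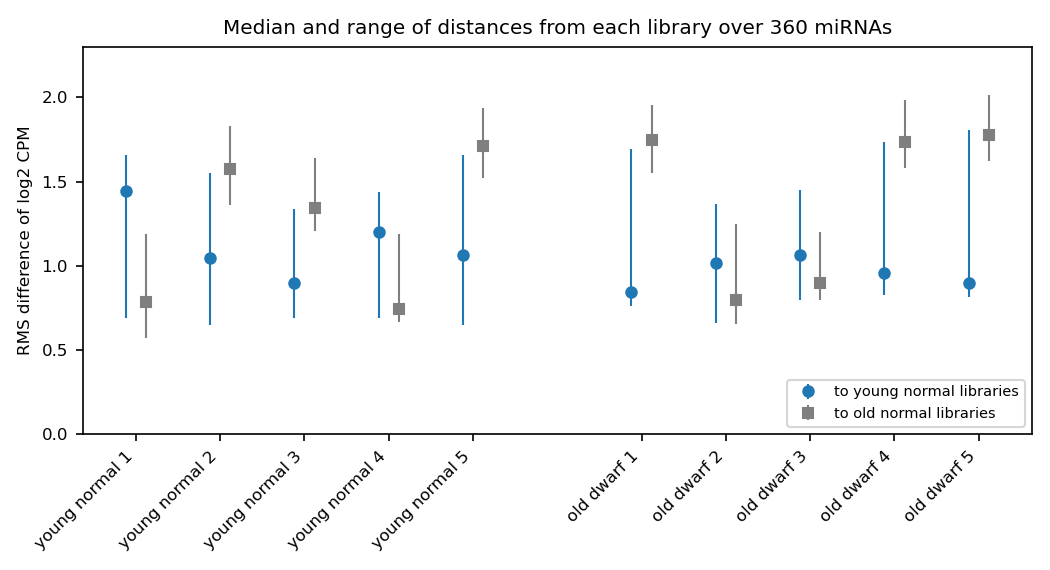
Root mean square difference of log2 CPM (median as point, range as line) from each young normal and old dwarf library to the young normal libraries (blue) and to the old normal libraries (grey). Grey points lie below blue ones for young normal replicates 1 and 4 and old dwarf replicates 2 and 3, and above them for the other 6 libraries.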

How the data were processed

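Small RNA of mouse serum was isolated with a column kit and sequenced after TruSeq small RNA library preparation, per the labels' protocols. Bowtie 0.12.8, bedtools, edgeR and GRCm38 (mm10) are named, without their roles, in the submitters' processing notes. The authors deposited whole-number counts in rows that pair a mature miRNA with a precursor, with RPM columns scaled by the authors beside them; RPM was not used. For each of 1915 names the precursor row with the highest total over the 20 libraries was kept, since a read can be listed in several rows. The second deposited file, on pooled samples, was not analysed here.

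Counts were tested with edgeR 4.0.16 (R 4.3.3; quasi-likelihood test, 4 group coefficients, TMM factors, default filter with a minimum count of 10), and Benjamini-Hochberg adjustment ran over the 360 miRNAs left of 1064 with a read in the 10 libraries and 1191 in all 20. Intervals use the fitted degrees of freedom. CPM is scaled to TMM-adjusted library size, and list and distance values use log2 CPM with a prior count of 2. The haemolysis index adds 1 to both counts. Single values per library were compared with 2-sided exact permutation tests (scipy 1.17.1). Alternatives were other scalings, filters, sample sets, row choices, a haemolysis covariate, a replicate block, DESeq2 1.42.0 and leaving out libraries. Scripts were tested on simulated data. Amplified reads are not independent molecules.

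Comparison, members and miRNA lists were chosen with earlier results of these data known. Named were called miRNAs, the 10 smallest p-values, up to 4 members of each of 21 lists by p-value, and the reference and abundant miRNAs. Also named were 8 miRNAs that earlier results had set apart in old dwarf against old normal serum. Names with identical counts share reads (36 names in 17 sets). Positions are from GENCODE M21 on GRCm38; sequences were matched in the RefSeq table for 15 of 15 names looked up.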

Additional observations from a re-analysis of the deposited data

Results flagged for a closer look

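In 6 of 126 groups of 5 libraries examined, 1 library stood far from the other 4; chance marks about 1 in 20 groups. In old dwarf serum, miR-592-5p stood at 172.3 CPM in replicate 1 and miR-205-5p at 112.7 CPM in replicate 3, as described above. miR-802-3p, the other arm of the miR-802-5p hairpin, stood at 38.2 CPM in old dwarf replicate 4. miR-99b-5p stood at 921.7 CPM in old dwarf replicate 1, against 453.7 to 588.3 CPM in the other 4. In young normal serum, miR-122-5p stood at 69.6 CPM in replicate 3 and miR-183-5p at 102.6 CPM in replicate 2, the latter against 11.6 to 16.99 CPM in the other 4.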

How the results depend on the processing

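The count of 3 called miRNAs was 3 with DESeq2 size factors, upper-quartile factors, summed precursor rows, identical names counted once or the haemolysis index in the model. It was 8 with library totals (1 higher, 7 lower), with a median of -0.19 (log2) over all miRNAs, adding miR-298-5p, miR-31-5p, miR-16-2-3p, miR-320-3p and miR-5113, the last 3 named after their values were seen. It was 5 without the filter, which added miR-192-5p and miR-802-5p, and 11 in DESeq2 (6 higher, 5 lower, with 25 miRNAs lacking an adjusted p). DESeq2 added miR-192-5p, miR-298-5p, miR-31-5p, miR-335-3p, miR-34b-3p, miR-34c-5p, miR-6240 and miR-802-5p. The count is traced further with fewer libraries. In the fit of the 10 libraries alone it was 0 (20 at an unadjusted p under 0.05), where miR-205-5p and miR-296-5p had an adjusted p of 0.0713 and 0.151 and miR-592-5p was not tested. With a replicate block it was also 0 (26 at an unadjusted p under 0.05). The labels do not say that equal numbers pair the samples. Same-numbered libraries deviated together with r of -0.62 to 0.65 (mean -0.32), and other pairs with r of -0.73 to 0.79 (mean 0.09). Whether equal numbers mark a shared batch or day was not tested. With 1 library left out the count ran from 0 to 3. It was 0 without young normal replicate 1 or 4, and 1 without young normal replicate 3 or old dwarf replicate 1, 4 or 5. Without old dwarf replicates 4 and 5 together, a fit added after the values were seen, it was 1 (miR-592-5p). Leaving out libraries in the comparisons with old normal and young dwarf serum was also added then. The 142 intervals inside a 2-fold change were 255 of 1191 without the filter. The haemolysis difference ran from -0.27 to 0.14 with 1 library left out, 0.14 without young normal replicate 3 and 0.05 without old dwarf replicate 2. Signs turned for miR-150-5p (-0.36 to 0.10 with 1 library left out, 0.10 without young normal replicate 1, and 0.10 without old dwarf replicates 4 and 5), miR-183-5p (-0.90 to 0.45 with 1 library left out, 0.45 without young normal replicate 2), miR-22-3p (0.0074, upper-quartile factors), and, without old dwarf replicates 4 and 5, miR-122-5p (-1.20), miR-136-5p (-0.13) and miR-382-5p (-0.40). The cause of these shifts was not tested. Low counts limit miRNAs under 10 CPM, of which 11 of 100 were bounded.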

Other observations

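Young dwarf serum gives the values of the called miRNAs at the younger age in the same genotype. miR-205-5p stood at 94.1 ± 49.2 CPM and miR-296-5p at 10.3 ± 4.51 CPM in young dwarf libraries (SD, n = 5), log2 -1.48 and -1.06 from young normal serum (edgeR adjusted p 0.183 and 0.369), and old dwarf serum differed from young dwarf serum by log2 -0.35 and -0.78 (0.997 for both). miR-592-5p stood at 1.90 ± 1.05 CPM in young dwarf libraries, and old dwarf serum was higher by log2 4.49 (adjusted p 0.0232; 2.51 and 0.0786 without old dwarf replicate 1, and 0.0523 to 0.115 with each young dwarf library left out in turn). miR-34c-3p was also higher in old than in young dwarf serum, by log2 2.73 (0.0292), with an adjusted p of 0.0786, 0.208 and 0.0522 without old dwarf replicates 1, 3 and 4 and of 0.0739 to 0.158 with each young dwarf library left out in turn. For miR-34c-5p the young dwarf mean of 18.7 ± 15.4 CPM lay beside 18.2 ± 12.6 CPM for young normal serum, and old dwarf serum differed from young dwarf serum by log2 2.03 (adjusted p 0.470).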
